A study of Mus musculus with 30 samples.

Results

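Collagens and the proteins that build, cross-link and degrade the extracellular matrix were followed in mouse liver as a set of 44 genes. The set was defined by gene symbol: a probe set belonged to it where its only symbol was on the list, and the brightest probe set over all 30 arrays stood for each gene. All 44 genes were found among the 17097 genes of the array, Ctgf under its current symbol Ccn2. They comprised 6 fibril-forming collagens, 8 basement membrane and network components, 5 beaded-filament and fibril-associated collagens, 3 cross-linking enzymes, 6 proteases or protease inhibitors, 4 proteoglycans, 6 elastic fibre proteins and glycoproteins, and 6 matricellular proteins counted together with vimentin.

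RNA came from non-tumour liver of 30 mice, 1 array per mouse. A choline-deficient high-fat diet (CD-HFD), which leads to steatohepatitis and hepatocellular carcinoma (HCC), was fed to 25 of them. Of these, 6 were given aspirin with clopidogrel as prophylaxis, 10 were given sulindac as prophylaxis, 4 received vehicle and had developed HCC and fibrosis, and 5 received vehicle and had developed neither. The remaining 5 were healthy vehicle mice on chow. Sulindac and aspirin inhibit cyclooxygenases, and clopidogrel blocks the platelet ADP receptor P2Y12. The labels give no sex, age, strain, dose or batch. Mice are named as in the titles: AspClo, Sulin, Veh_high (vehicle with HCC), Veh_low (vehicle without HCC) and Hlth, each with its animal number. Values of single mice run in the order AspClo_61, AspClo_64, AspClo_58, AspClo_60, AspClo_62, AspClo_63. Vehicle mice run Veh_high_798, Veh_high_1770, Veh_high_1831, Veh_high_2088 with HCC and Veh_low_1810, Veh_low_1825, Veh_low_2091, Veh_low_794, Veh_low_1819 without, and healthy mice Hlth_1798, Hlth_1804, Hlth_1965, Hlth_1968, Hlth_1807.

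Collagens are secreted as triple helices and assemble into fibrils, networks or beaded filaments. In the liver, hepatic stellate cells lie along the sinusoids and portal fibroblasts around the ducts and vessels, and both deposit fibrillar collagen when the organ scars. Lysyl oxidases cross-link collagen and elastin, matrix metalloproteinases degrade the matrix, and tissue inhibitors of metalloproteinases (TIMPs) restrain them. A basement membrane of type IV collagen, laminin and nidogen, sparse along normal sinusoids, is laid down there during fibrosis.

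All levels are log2 of the normalized intensity, and a difference is the first-named group minus the second on that scale. Differences were tested with limma on all 17097 genes, and a gene was called past the test at a Benjamini-Hochberg adjusted p under 0.05. The mean over all mice lay below the median gene (4.90) for 16 of the 44 members and at or above it for 28. Near the lower end of the scale the arrays compress differences, and this touches the 16 members below the median gene. They were Col1a1, Col1a2, Col8a1, Col15a1, Col16a1, Timp1, Mmp2, Mmp13, the lysyl oxidases, Vcan, Eln, Thbs2, Fbln1 and Fbln2. As a check of the tissue, albumin mRNA (Alb) lay between 13.41 and 13.68 in all 30 mice. In bulk tissue, more cells of a matrix-producing type cannot be told apart from more RNA per cell.

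Before any comparison, 2 of the 5 healthy mice stood apart from the others. Across the 17053 genes outside the matrix set, each pair among Hlth_1804, Hlth_1965 and Hlth_1968 correlated at 0.997. Hlth_1798 correlated with those 3 mice at 0.976 to 0.977 and Hlth_1807 at 0.978 to 0.979, and the 2 mice correlated with each other at 0.983. These correlations are descriptions over genes of the same arrays. In the matrix set, Hlth_1807 lay above the other 3 healthy mice in 42 of 44 genes, against 32.9% of all genes, and over 1 log2 unit above their mean in 25, against 2.67%. It was the highest of all 30 mice in 27 of 44, against 6.75% of all genes. Hlth_1798 lay above the other 3 in 33 of 44 genes, against 32.2% of all genes, and over 1 log2 unit above their mean in 12, against 2.78%. Both mice lay above the other 3 in 32 genes, and the share of all genes for both together was not computed. The healthy group spanned a wider range than any CD-HFD group for genes such as Col3a1, Col6a3 and Lum.

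**Figure D1:**
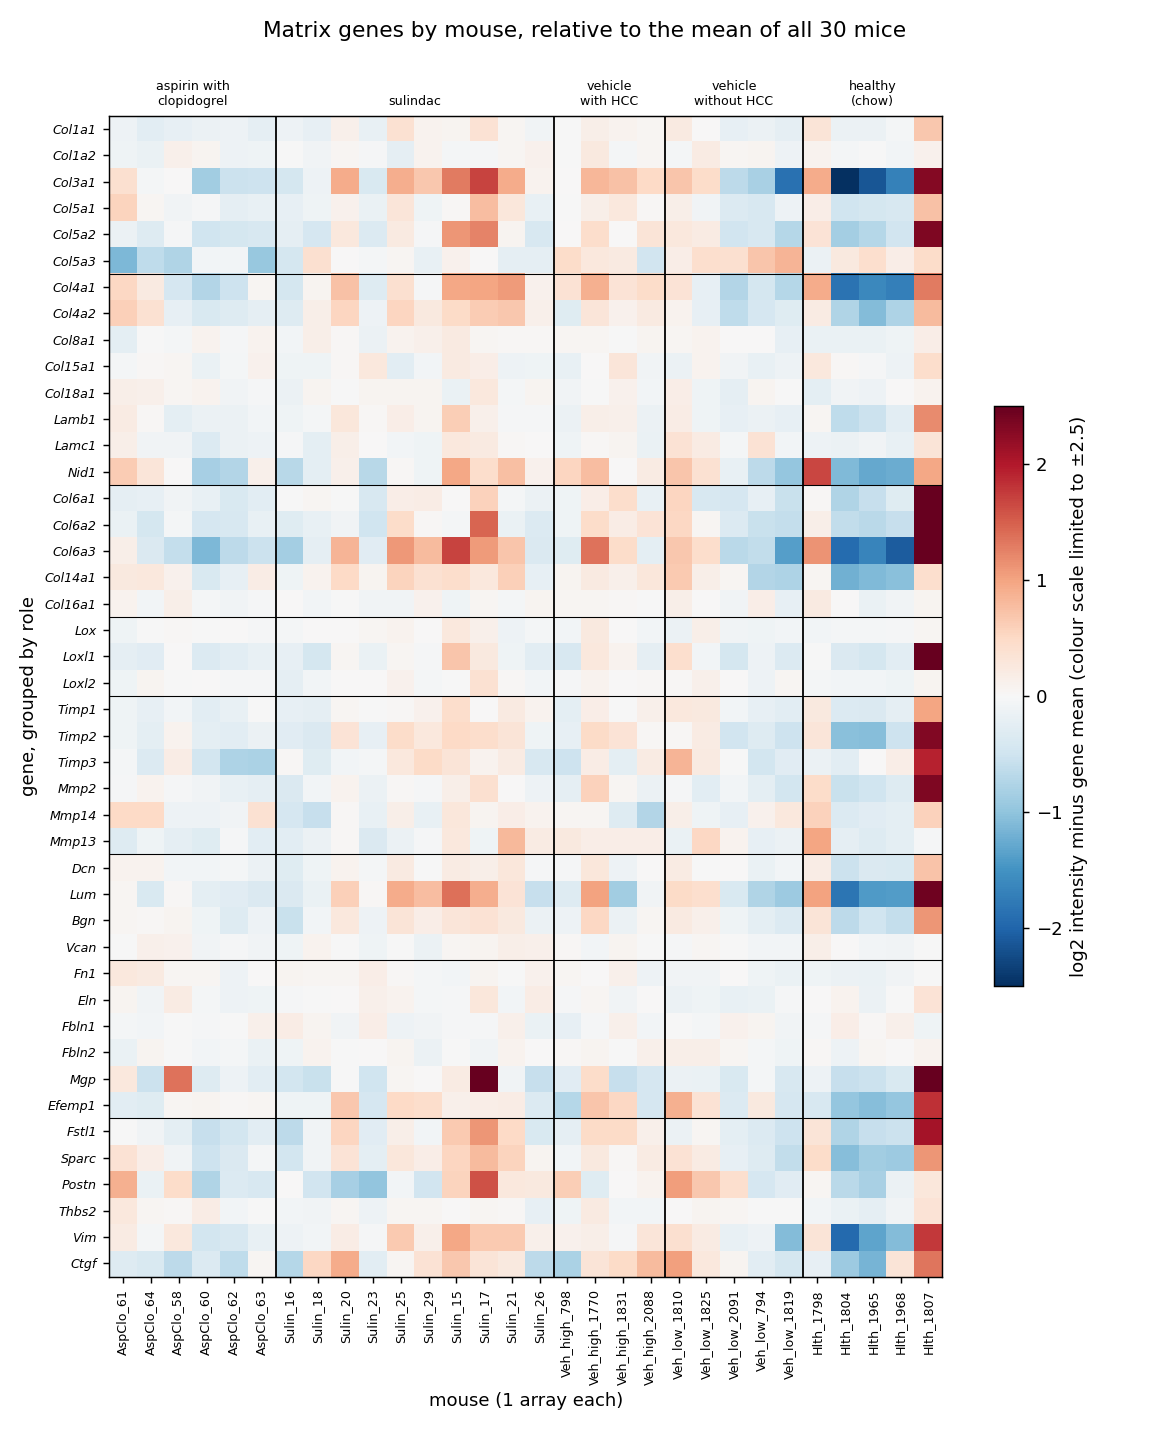
Log2 intensity of the 44 matrix genes (rows, grouped by role) in 30 mice (columns, grouped by treatment), each shown as the difference from the gene's mean over all mice, with colour limited at 2.5 log2 units on either side. Hlth_1807 is the highest column in most rows, and Hlth_1804, Hlth_1965 and Hlth_1968 are low in most rows.

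Markers of several other cell types, though not of all, stood apart in these 2 mice. In Hlth_1807 the summed intensity of 7 cholangiocyte markers was 585, against 153 to 164 in the other 3 healthy mice, with 6 of 7 markers above all 3. Its 12 portal fibroblast and smooth muscle markers summed to 1024, against 258 to 275, with 8 of 12 above all 3 and 2 below. Its 14 stellate cell and myofibroblast markers summed to 4362, against 2441 to 2783, with 9 of 14 above all 3 and 2 below. Its 13 Kupffer cell and macrophage markers were split, with 6 above and 6 below, and their sum of 4372 lay within the range of the other 3. In Hlth_1798 the 13 Kupffer cell and macrophage markers summed to 14118, against 3394 to 4791, with 11 of 13 above and 2 below. Its portal markers summed to 364, with 7 above and 2 below. Its stellate cell markers, at 2643, lay within the range of the other 3. The 11 endothelial markers went the other way in Hlth_1807, at 2311 against 2932 to 3345, with 7 of 11 below all 3, and lay within that range in Hlth_1798, at 3234. The summed hepatocyte markers of both were lower than in the other 3, at 56877 in Hlth_1807 and 54340 in Hlth_1798 against 62122 to 63473. Of the 10 markers, 5 lay below all 3 in Hlth_1807 and 2 above, and 7 lay below in Hlth_1798. The part of these cell types in the matrix levels was not tested.

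The first comparison asked how the matrix genes of vehicle mice on CD-HFD differed from those of healthy mice. With all mice, none of the 44 genes passed the test, while 0.0117% of all genes did (2 of 17097). At an unadjusted p under 0.05 with limma, 1 member was higher, against 3.66% of all genes, and 1 was lower, against 3.08%. The median difference of the members was 0.044, with 27 higher and 17 lower, and 51.8% of all genes were higher, with a median of 0.0032. No member separated the groups without overlap, as 0.117% of all genes did.

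Type III collagen (Col3a1), a major fibril component of scar, had 9.36, 10.18, 10.08 and 9.85 in the 4 vehicle mice with HCC and 10.05, 9.81, 8.70, 8.55 and 7.49 in the 5 without, against 10.28, 6.07, 7.22, 7.66 and 11.64 in healthy mice. Both healthy mice that stood apart exceeded every vehicle mouse, and the other 3 lay below 8 of the 9. Its means were 9.34 ± 0.91 in vehicle mice and 8.57 ± 2.31 in healthy mice (SD, n = 9 and 5), a difference of 0.77 with a standard error of 0.602 (limma, adjusted p = 0.904). The probe sets for type I collagen, the main fibrillar collagen, read near the lower end of the scale in every mouse. Col1a1 and Col1a2 each rested on 1 named probe set, and others may be unnamed in the annotation. Whether these probe sets follow the level of type I collagen mRNA was not tested. Col1a1 had 4.22 to 4.68 in vehicle mice and 4.31 to 5.13 in healthy mice, with a difference of -0.14 (limma, adjusted p = 0.904). For Col1a2 the difference was 0.027 (limma, adjusted p = 0.983).

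The members with the smallest unadjusted p in that comparison of all mice did not pass either. On the higher side the difference was 0.59 for Col14a1 (adjusted p = 0.636), 0.10 for Col8a1 (adjusted p = 0.845) and 0.62 for Col4a1 (limma, adjusted p = 0.863). The second Col4a1 probe set, nearly as bright with a mean of 6.78 over all mice against 7.16, differed by only 0.13. On the lower side it was -0.13 for elastin (adjusted p = 0.736), -0.17 for Col15a1 (adjusted p = 0.806) and -0.55 for Loxl1 (limma, adjusted p = 0.869). Col14a1 and elastin were the 2 members with an unadjusted p under 0.05. For Fn1 the difference was 0.061 (adjusted p = 0.918), for Timp1 -0.057 (adjusted p = 0.988) and for Mmp2 -0.37 (limma, adjusted p = 0.893).

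Without Hlth_1798 and Hlth_1807, a comparison chosen after the data were seen, 12 of 44 members passed the test and all 12 were higher in vehicle mice, while 2.73% of all genes passed in either direction and 1.57% as higher. The median difference of the members was then 0.361, with 41 of 44 higher. These 2 mice stood apart over all genes but also had the highest matrix levels of their group, so the larger differences follow in part from leaving them out. The 12 genes came from 7 of the 8 roles, and no cross-linking enzyme was among them. The values below are from this second comparison, with 9 vehicle and 3 healthy mice.

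Among fibril-forming collagens only Col3a1 of 6 passed, higher by 2.36 with a standard error of 0.46 (limma, adjusted p = 0.0055). Col1a1, at 0.10, did not pass (adjusted p = 0.724), nor did Col5a1 at 0.40 (adjusted p = 0.223) or Col5a2 at 0.64 (adjusted p = 0.247). In the basement membrane group 2 of 8 passed. Col4a1, a chain of the type IV collagen network, had 7.51, 8.05, 7.50 and 7.62 in vehicle mice with HCC and 7.50, 6.96, 6.43, 6.71 and 6.45 in those without, against 5.31, 5.55 and 5.45 in the 3 healthy mice. Every vehicle mouse lay above all 3, and the difference was 1.76 with a standard error of 0.29 (limma, adjusted p = 0.00172). These values rest on the brighter Col4a1 probe set, and the second differed less in the comparison of all mice. Nidogen (Nid1), which links laminin to type IV collagen, was higher by 1.30 (limma, adjusted p = 0.0366). Col4a2, the partner chain of Col4a1, was at 5.30 to 6.24 in vehicle mice, against 5.19, 4.85 and 5.18, with a difference of 0.74 that did not pass (limma, adjusted p = 0.0506).

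Of the beaded-filament and fibril-associated collagens, Col6a3 and Col14a1 passed, out of 5. Col6a3, the large chain of type VI collagen microfilaments, was higher by 1.85 (limma, adjusted p = 0.0243). Col14a1, which coats the surface of fibrils, had 9.05, 9.21, 9.10 and 9.27 in vehicle mice with HCC and 9.63, 9.13, 9.01, 8.25 and 8.20 in those without, against 7.77, 7.88 and 7.93. Its groups did not overlap once both mice were left out, and its difference was 1.12 (limma, adjusted p = 0.00514). Of the small leucine-rich proteoglycans, which bind collagen fibrils and set their spacing, lumican (Lum) was higher by 1.39 (adjusted p = 0.0358), biglycan (Bgn) by 0.58 (adjusted p = 0.0471) and decorin (Dcn) by 0.44 (limma, adjusted p = 0.0121). Versican (Vcan), a large proteoglycan, varied least of all members, by 0.287 over the 30 mice.

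Timp2 was the only member of the protease and inhibitor group to pass. It had 6.65, 7.32, 7.20 and 6.88 in vehicle mice with HCC and 6.89, 7.05, 6.37, 6.54 and 6.34 in those without, against 5.81, 5.78 and 6.33 in the 3 healthy mice. The lowest vehicle mouse was barely above the highest of the 3, and the difference was 0.83 (limma, adjusted p = 0.015). Timp1, a TIMP often used as a fibrosis marker, differed by 0.31 (adjusted p = 0.162) and Mmp2, a gelatinase made by stellate cells, by 0.37 (limma, adjusted p = 0.148). Among the glycoproteins, Efemp1 (fibulin-3) was higher by 1.09 (limma, adjusted p = 0.0226). Fibronectin (Fn1), which hepatocytes also secrete, lay in a narrow band of 11.56 to 11.84 in vehicle mice, against 11.56 to 11.72 in all 5 healthy mice. In the last group, the intermediate filament vimentin (Vim) was higher by 1.42 (limma, adjusted p = 0.00272) and Sparc, a collagen-binding matricellular protein, by 0.93 (limma, adjusted p = 0.0181).

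**Figure D2:**
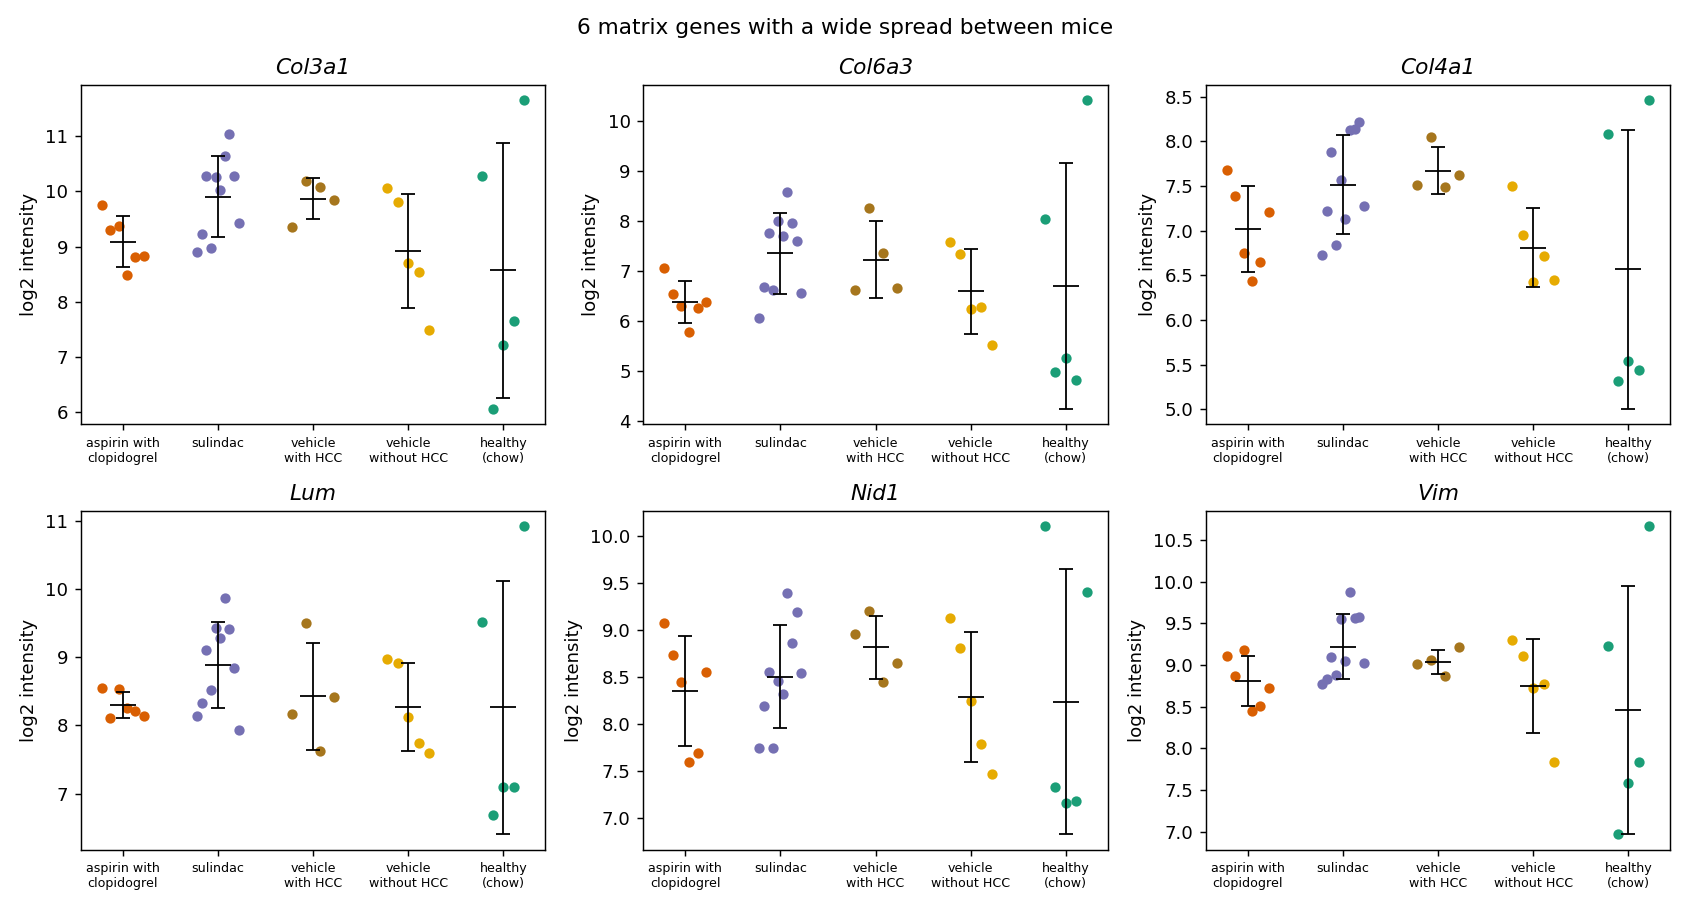
Log2 intensity of Col3a1, Col6a3, Col4a1, Lum, Nid1 and Vim in each mouse, by group, with group means and SD as bars. In each panel Hlth_1798 and Hlth_1807 lie well above the other 3 healthy mice.

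**Figure D3:**
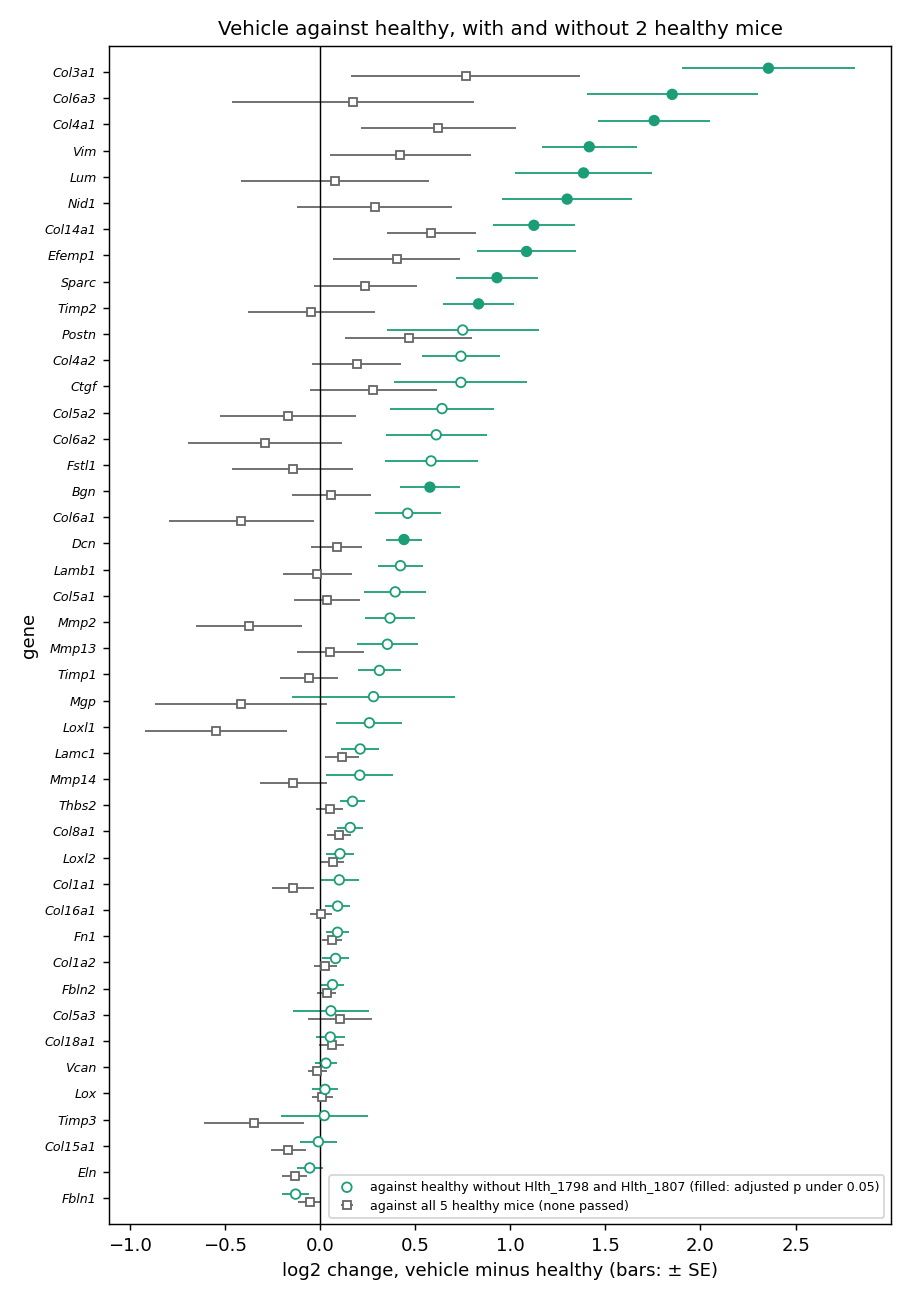
Difference between vehicle and healthy mice (log2, ± standard error) for the 44 matrix genes, with all 5 healthy mice and with Hlth_1798 and Hlth_1807 left out; filled symbols mark an adjusted p under 0.05. No symbol is filled with all mice and 12 are filled without the 2 mice, with Col3a1 at 0.77 and 2.36.

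The 3 remaining healthy mice were also compared mouse by mouse. They had the lowest mean matrix levels of all mice, so the count below follows in part from leaving out the other healthy mice. In 11 of the 44 genes, all 25 CD-HFD mice, drug-treated ones included, lay above Hlth_1804, Hlth_1965 and Hlth_1968, as did 0.977% of all genes. Col4a1 had 6.43 to 8.22 in the 25 mice, against 5.31 to 5.55 in the 3. Col6a3 had 5.53 to 8.59, against 4.82 to 5.27, and Lum had 7.59 to 9.87, against 6.68 to 7.10. Col14a1, Nid1, Efemp1, Sparc, Dcn, Timp2, Lamb1 and Col4a2 completed the list, some by narrow gaps, such as Dcn with 10.94 to 11.53 against 10.71 to 10.89. For Col3a1 and Vim 24 of the 25 mice lay above the 3.

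The genes for both chains of type IV collagen, Col4a1 and Col4a2, lie head to head on mouse chromosome 8, and their promoters are shown for that reason. Both genes were highest in Hlth_1807 and low in the same 3 healthy mice. This was not particular to the pair, as Hlth_1807 was the highest of all mice in 27 of the 44 members. In the RefSeq annotation of build GRCm38.p6 their start sites are 21 bases apart on opposite strands, and the windows of 250 bases before to 50 after each start overlap by 78 bases. Capitals mark CCAAT on the printed strand, or ATTGG where it lies on the other strand. The Col4a1 window is chr8:11312777-11313076 on the minus strand and the Col4a2 window chr8:11312555-11312854 on the plus strand.
Col4a1: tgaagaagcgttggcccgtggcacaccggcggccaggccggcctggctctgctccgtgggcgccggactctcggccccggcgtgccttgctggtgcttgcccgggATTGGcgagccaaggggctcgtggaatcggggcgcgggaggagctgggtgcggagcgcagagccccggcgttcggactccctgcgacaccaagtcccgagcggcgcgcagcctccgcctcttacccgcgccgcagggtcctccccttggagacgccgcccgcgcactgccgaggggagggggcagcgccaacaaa
Col4a2: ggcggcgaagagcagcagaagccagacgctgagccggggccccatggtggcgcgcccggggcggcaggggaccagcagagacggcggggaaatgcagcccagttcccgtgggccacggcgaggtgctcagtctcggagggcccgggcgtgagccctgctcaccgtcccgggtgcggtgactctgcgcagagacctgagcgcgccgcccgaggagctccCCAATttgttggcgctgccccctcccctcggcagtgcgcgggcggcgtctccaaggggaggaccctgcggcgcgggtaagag

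Counted from the start site, the match begins at position -145 in Col4a1 and -32 in Col4a2. RefSeq promoter windows were given for 30 of the 44 members, 34 windows in all, and 15 of the 34 (44.1%) held CCAAT on either strand, against 12289 of 32851 windows of the same length (37.4%). A match describes the letters in the window.

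The next comparison set vehicle mice with HCC and fibrosis against vehicle mice without either. No member passed the test, while 0.0877% of all genes did. At an unadjusted p under 0.05 with limma, 0 members were higher, against 3.34% of all genes, and 0 were lower, against 5.53%. The members' median difference was 0.090, with 36 of 44 higher in mice with HCC, against 46.6% of all genes higher and a median of -0.0075. No member separated the groups, as 3% of all genes did. The labels of these 4 mice name fibrosis, and no matrix gene was called in them against the 5 without. With so few mice the test cannot show that matrix levels were equal, and Col1a1 and Col1a2 lay near the lower end of the scale.

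Col4a1 had the smallest unadjusted p of the members that were higher, with the values given above for the 9 mice. The 3 mice at 7.51, 8.05 and 7.62 with HCC lay above every mouse without HCC, and the fourth, at 7.50, was level with Veh_low_1810. Its means were 7.67 ± 0.26 with HCC and 6.81 ± 0.44 without (SD, n = 4 and 5), a difference of 0.86 with a standard error of 0.492 (limma, adjusted p = 0.649). Col3a1 differed by 0.95 with a standard error of 0.724 (limma, adjusted p = 0.777). Fibronectin differed by 0.093 (adjusted p = 0.718) and elastin (Eln) by 0.11 (limma, adjusted p = 0.753).

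On the lower side, Col5a3, a chain of the type V collagen that nucleates fibrils, averaged 6.51 ± 0.41 with HCC and 6.90 ± 0.26 without, a difference of -0.39 (limma, adjusted p = 0.595). The laminin chain Lamc1 had a difference of -0.20 (adjusted p = 0.626) and the collagenase Mmp14 of -0.28 (limma, adjusted p = 0.772). For Col1a2 it was 0.034 (limma, adjusted p = 0.946). Col1a1 differed by 0.14 (adjusted p = 0.839), Mmp2 by 0.27 (adjusted p = 0.888) and Timp1 by 0.019 (limma, adjusted p = 0.99). Averaged over the 44 genes, the deviation from each gene's mean over all mice differed within each group. Without HCC it was highest in Veh_low_1810, at 0.26, and lowest in Veh_low_1819, at -0.36. With HCC it was highest in Veh_high_1770, at 0.29.

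Each vehicle group was also set against the same 5 healthy mice, so these 2 comparisons share their controls. Vehicle mice with HCC had no called member, against 0.0994% of all genes. With limma's unadjusted p under 0.05, 2 members were higher, against 4.45% of all genes, and 0 lower, against 4.82%. None separated the groups, as 2.66% of all genes did. Col14a1 averaged 9.16 ± 0.098 in them and 8.40 ± 0.75 in healthy mice, a difference of 0.76 (limma, adjusted p = 0.371), and Col4a1 differed by 1.10 (limma, adjusted p = 0.489); these were the 2 members under 0.05. Next on that side came Fn1, with 0.11 (adjusted p = 0.613). On the lower side the difference was -0.29 for Mmp14 (adjusted p = 0.743), -0.43 for Timp3 (adjusted p = 0.752) and -0.52 for Loxl1 (limma, adjusted p = 0.811). It was 1.29 for Col3a1 (adjusted p = 0.621), -0.064 for Col1a1 (adjusted p = 0.938) and 0.046 for Col1a2 (limma, adjusted p = 0.916). For Timp1 it was -0.047 (adjusted p = 0.975) and for Mmp2 -0.22 (limma, adjusted p = 0.911).

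Vehicle mice without HCC had no called member either, against 0% of all genes. With limma's unadjusted p under 0.05, 0 were higher, against 3.35% of all genes, and 2 lower, against 1.97%. None separated these groups, as 0.79% of all genes did. The 2 lower members were elastin, with a difference of -0.18 (adjusted p = 0.896), and Col15a1, with -0.21 (limma, adjusted p = 0.923). Col1a1 followed with -0.20 (limma, adjusted p = 0.953). On the higher side Lamc1 had 0.21 (adjusted p = 0.923), Col14a1 0.45 (adjusted p = 0.953) and Col5a3 0.28 (limma, adjusted p = 0.96). The difference was 0.35 for Col3a1 and 0.24 for Col4a1 (limma, adjusted p = 0.991 for both), and 0.012 for Col1a2 (adjusted p = 0.998). It was 0.020 for Fn1 (adjusted p = 0.992), -0.066 for Timp1 (adjusted p = 0.992) and -0.49 for Mmp2 (limma, adjusted p = 0.953).

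Without Hlth_1798 and Hlth_1807, 14 members passed in mice with HCC, all higher, while 4.25% of all genes passed and 2.12% were higher. As before, the mice left out had the highest matrix levels of the healthy group, so higher members follow in part from that choice. In mice without HCC 1 passed, Vim, higher by 1.29 (limma, adjusted p = 0.03), while 0.439% of all genes passed and 0.281% were higher. Col3a1, Col4a1 and Col6a3 were then higher by 2.88, 2.24 and 2.20 in mice with HCC (limma). Whether the 2 vehicle groups differed was tested directly above, with no call.

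Aspirin with clopidogrel was compared with vehicle on the same diet. Of the 44 members 1 passed the test, Col5a3, which was lower in the drug-treated mice, while 1.96% of all genes passed, so the count was near the background. At an unadjusted p under 0.05 with limma, 1 member was higher, against 7.68% of all genes, and 2 were lower, against 6.9%. The members' median difference was -0.069, with 31 of 44 lower, against 50.8% of all genes higher and a median of 0.0017. No member separated the groups, as 0.392% of all genes did.

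Col5a3 had 5.27, 5.77, 5.64, 6.33, 6.32 and 5.46 in AspClo mice 61, 64, 58, 60, 62 and 63. It had 6.86, 6.66, 6.62 and 5.92 in vehicle mice with HCC and 6.57, 6.81, 6.80, 7.09 and 7.24 in those without. The 4 lowest AspClo mice lay below all 9 vehicle mice, and the other 2 overlapped only with Veh_high_2088. The means were 5.80 ± 0.44 in AspClo mice and 6.73 ± 0.37 in vehicle mice (SD, n = 6 and 9), a difference of -0.93 with a standard error of 0.160, or 1.91-fold lower (limma, adjusted p = 0.00233).

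The call was kept when each of the 30 mice was left out in turn, with an adjusted p between 0.000349 and 0.0137 (limma). Against the 4 vehicle mice with HCC alone the difference was -0.72 and did not pass (adjusted p = 0.0734), and against the 5 without HCC it was -1.10 (limma, adjusted p = 0.00269). The second Col5a3 probe set of the array did not follow. It averaged 4.66 in AspClo mice and 4.66 in vehicle mice, near the lower end of the scale, so the call rests on the brighter probe set.

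A cholangiocyte marker, Prom1, was high in the AspClo mice where Col5a3 was low. Prom1 had 8.03, 6.96, 8.27, 4.68, 4.60 and 6.82 in the AspClo mice, in the order given for Col5a3, and averaged 4.57 ± 0.15 in vehicle mice (difference 1.99, limma, adjusted p = 0.0098). In sulindac mice it averaged 4.59 ± 0.21, with a difference of 1.97 between AspClo and sulindac mice (limma, adjusted p = 0.0149). The 4 AspClo mice with high Prom1 were the 4 with the lowest Col5a3. Among healthy mice the relation was the reverse in Hlth_1807, which had the highest Prom1, at 6.64, and the highest Col5a3, at 6.86. Of the 7 cholangiocyte markers Prom1 alone passed against vehicle, while 1.96% of all genes did. The 7 together summed to 159 to 441 in AspClo mice, 149 to 246 in sulindac mice, 150 to 179 in vehicle mice with HCC, 158 to 169 in those without and 153 to 585 in healthy mice. Prom1 enters these sums, so they are no separate evidence on the cell type in AspClo mice. The defining marker Krt19 stayed near the lower end of the scale in AspClo mice, at 4.28 to 4.45. The part of these cells in the Col5a3 difference was not tested.

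The Col5a3 promoter is shown because the gene carried the only call against vehicle. Its RefSeq window is chr9:20815018-20815317 on the minus strand of GRCm38.p6, with CCAAT in capitals from position -122, counted from the start site.
Col5a3: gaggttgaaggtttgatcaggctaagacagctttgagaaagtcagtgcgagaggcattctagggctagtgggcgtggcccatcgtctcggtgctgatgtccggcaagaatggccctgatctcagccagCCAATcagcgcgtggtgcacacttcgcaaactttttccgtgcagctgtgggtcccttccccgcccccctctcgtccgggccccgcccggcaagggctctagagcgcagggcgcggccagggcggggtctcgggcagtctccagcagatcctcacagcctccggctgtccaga

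**Figure D4:**
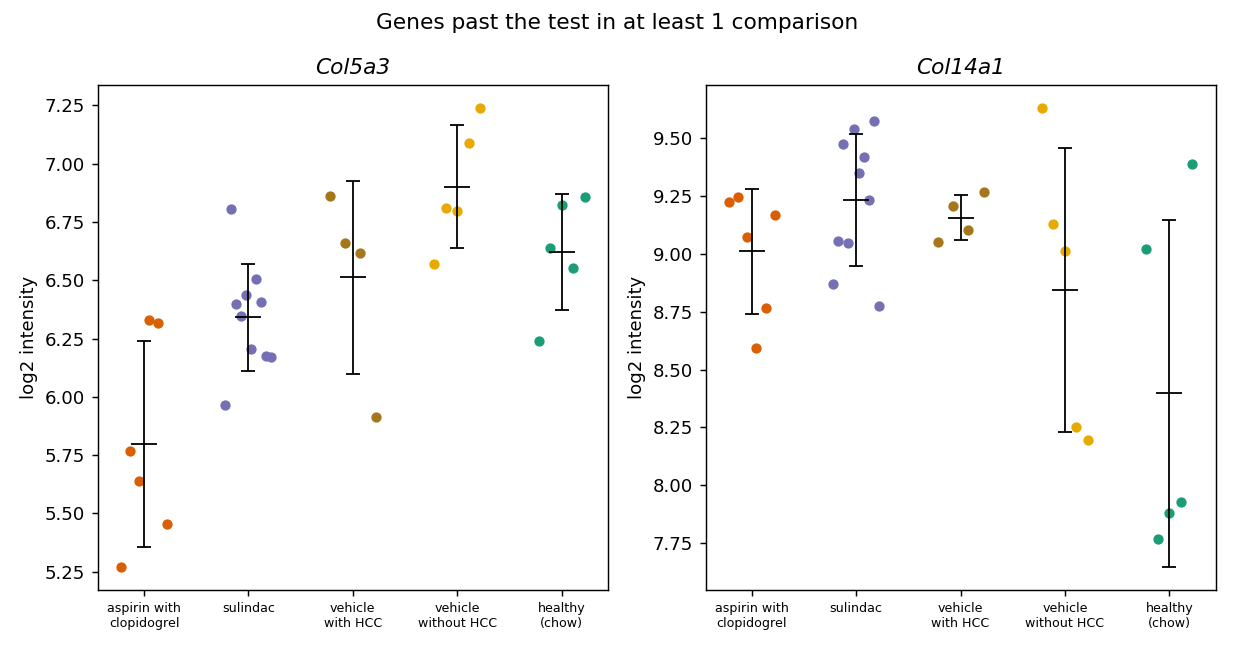
Log2 intensity of Col5a3 and Col14a1 in each mouse, by group, with group means and SD as bars. Of the 6 AspClo mice, 4 lie below every vehicle mouse for Col5a3, and Hlth_1804, Hlth_1965 and Hlth_1968 lie below every CD-HFD mouse for Col14a1.

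No other collagen passed between AspClo and vehicle mice. Col3a1 had 8.49, 9.06 and 9.75 as lowest, median and highest in AspClo mice, against 7.49, 9.81 and 10.18 in vehicle mice, and the 2 groups overlapped throughout. Its difference was -0.25 with a standard error of 0.569 (limma, adjusted p = 0.893). Col4a1 had a difference of -0.17 (adjusted p = 0.891). Col1a1 averaged 4.27 ± 0.060 in AspClo mice and 4.44 ± 0.16 in vehicle mice, a difference of -0.17 (limma, adjusted p = 0.482), and Col1a2 had a difference of -0.088 (adjusted p = 0.509). Both type I collagen genes lay near the lower end of the scale.

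Fibronectin was the member with the smallest unadjusted p among those higher in AspClo mice. It had 11.60, 11.76 and 11.99 as lowest, median and highest in AspClo mice, against 11.56, 11.64 and 11.84 in vehicle mice. The groups overlapped, and the difference was 0.11 (limma, adjusted p = 0.261). Mmp14, a membrane-bound collagenase, averaged 8.15 in AspClo mice and 7.90 in vehicle mice (limma, adjusted p = 0.511), and elastin differed by 0.060 (adjusted p = 0.719). On the lower side, fibulin-2 (Fbln2) had a difference of -0.11 (adjusted p = 0.26) and Lamc1 of -0.17 (limma, adjusted p = 0.351). Timp1 had a difference of -0.14 (adjusted p = 0.721) and Mmp2 of 0.015 (limma, adjusted p = 0.987).

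Sulindac was compared with vehicle on the same diet, with the same 9 vehicle mice as above. No member passed the test, while 0.199% of all genes did. At an unadjusted p under 0.05 with limma, 2 members were higher, against 5.98% of all genes, and 1 was lower, against 4.43%. The members' median difference was 0.053, with 33 of 44 higher, against 53.2% of all genes higher and a median of 0.0051. No member separated the groups, as 0.0702% of all genes did.

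Col5a3 had 5.97, 6.37 and 6.80 as lowest, median and highest in sulindac mice, against 5.92, 6.80 and 7.24 in vehicle mice. The groups overlapped, and its difference of -0.39, with a standard error of 0.139, did not pass (limma, adjusted p = 0.273). Col4a2 had 5.62, 6.30 and 6.61 in sulindac mice, against 5.30, 5.74 and 6.24 in vehicle mice, a difference of 0.42 (limma, adjusted p = 0.446). Elastin differed by 0.13 (adjusted p = 0.391) and fibronectin by 0.085 (limma, adjusted p = 0.488).

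Col3a1 had 8.91, 10.14 and 11.04 as lowest, median and highest in sulindac mice. Its mean was 9.90 ± 0.73 in sulindac mice and 9.34 ± 0.91 in vehicle mice (SD, n = 10 and 9), a difference of 0.56 with a standard error of 0.496 (limma, adjusted p = 0.762). The difference was 0.32 for Col4a1 (adjusted p = 0.811), 0.057 for Col1a1 (adjusted p = 0.894) and -0.050 for Col1a2 (limma, adjusted p = 0.79). Timp1 differed by 0.046 (adjusted p = 0.943) and Mmp2 by 0.085 (limma, adjusted p = 0.942), and Fbln2 had a difference of -0.050 (adjusted p = 0.738).

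The drug arms were then set against each other. No member passed the test, while 0.877% of all genes did, and at an unadjusted p under 0.05 with limma 0 members were higher, against 4.91% of all genes, and 2 lower, against 5.86%. The members' median difference was -0.16, with 39 of 44 lower in AspClo mice, against 48.3% of all genes higher and a median of -0.0028. No member separated the groups, as 0.328% of all genes did. The lowest difference was that of Col6a3, at -0.97. It had 5.79, 6.34 and 7.06 in AspClo mice and 6.06, 7.65 and 8.59 in sulindac mice, as lowest, median and highest.

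Col5a3 averaged 5.80 ± 0.44 in AspClo mice and 6.34 ± 0.23 in sulindac mice, a difference of -0.55 with a standard error of 0.157, which did not pass over all genes (limma, adjusted p = 0.0939). The same 4 AspClo mice lay below every sulindac mouse. Leaving out AspClo_60 or AspClo_62, the highest of the group, brought the count of called members to 1, with 1.06% and 1.58% of all genes called in those 2 fits. Col1a1 averaged 4.27 ± 0.060 in AspClo mice and 4.50 ± 0.21 in sulindac mice, a difference of -0.23 (limma, adjusted p = 0.403). Timp3, a TIMP bound to the matrix, lay between 7.16 and 8.13 in AspClo mice and between 7.54 and 8.42 in sulindac mice, a difference of -0.42 (limma, adjusted p = 0.57). Col3a1 had a difference of -0.81 with a standard error of 0.557 (adjusted p = 0.667) and Col4a1 of -0.49 with a standard error of 0.379 (limma, adjusted p = 0.717). On the higher side Mmp14 differed by 0.23 (adjusted p = 0.675), Thbs2 by 0.091 (adjusted p = 0.692) and Fn1 by 0.029 (limma, adjusted p = 0.901). For Col1a2 the difference was -0.038 (adjusted p = 0.882), for Timp1 -0.19 (adjusted p = 0.715) and for Mmp2 -0.070 (limma, adjusted p = 0.963).

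Each drug arm was also compared with the 5 healthy mice, which both comparisons share with the vehicle comparison. In sulindac mice 1 of 44 members passed, Col14a1, while 2.98% of all genes did, so the count was not above the background. With limma's unadjusted p under 0.05, 7 members were higher, against 8.92% of all genes, and 0 lower, against 5.91%. None separated the groups, as 1.32% of all genes did. Col14a1 had 8.77, 9.29 and 9.57 as lowest, median and highest in sulindac mice, against 9.02, 7.77, 7.88, 7.93 and 9.39 in healthy mice. All 10 sulindac mice lay above the 3 low healthy mice, and 4 of 10 lay above all 5. The means were 9.23 ± 0.28 and 8.40 ± 0.75 (SD, n = 10 sulindac and 5 healthy), a difference of 0.84 with a standard error of 0.232, or 1.79-fold higher (limma, adjusted p = 0.0452). Its 3 probe sets were all higher in sulindac mice, by 0.84, 0.72 and 0.53. The call was kept in 12 of the 30 fits that left out 1 mouse, with an adjusted p between 0.00629 and 0.167 (limma), highest without Hlth_1804.

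Fibronectin differed by 0.15 between sulindac and healthy mice (limma, adjusted p = 0.125) and Col4a2 by 0.61 (adjusted p = 0.171). Col3a1 differed by 1.33 with a standard error of 0.591 (adjusted p = 0.276) and Col4a1 by 0.94 (limma, adjusted p = 0.248). The dimmer second Col3a1 probe set, at a mean of 4.55 over all 30 mice, differed by 0.13 between sulindac and healthy mice. On the lower side the difference was -0.28 for Col5a3 (adjusted p = 0.469), -0.13 for Col15a1 (adjusted p = 0.56) and -0.47 for Loxl1 (limma, adjusted p = 0.619). It was -0.084 for Col1a1 (adjusted p = 0.805) and -0.023 for Col1a2 (limma, adjusted p = 0.912). For Timp1 it was -0.011 (adjusted p = 0.988) and for Mmp2 -0.29 (limma, adjusted p = 0.703).

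Without Hlth_1798 and Hlth_1807, 16 members passed, all higher, while 7.12% of all genes passed and 4.47% were higher. That choice was made after the data were seen and left the healthy mice with the lowest matrix levels. The count and the differences that follow come in part from it. Col3a1 was then higher by 2.92 (adjusted p = 0.000227), Col4a1 by 2.08 (adjusted p = 9.1e-05), Lum by 1.93 and Vim by 1.76 (limma, adjusted p = 9.1e-05). Without Hlth_1807 alone 9 members passed, while 3.36% of all genes did. The count was 0 without any 1 of Hlth_1804, Hlth_1965, Hlth_1968, Veh_high_798, Veh_high_1770, Veh_high_2088, Veh_low_2091, AspClo_58, AspClo_61, AspClo_64, or any sulindac mouse other than Sulin_16 and Sulin_26.

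In AspClo mice 1 of 44 members passed against healthy mice, Col5a3, while 2.77% of all genes did, again not above the background. At an unadjusted p under 0.05 with limma 2 members were higher, against 8.33% of all genes, and 3 lower, against 6.47%. None separated the groups, as 2.01% of all genes did. Against the AspClo values given above, Col5a3 had 6.24, 6.64, 6.82, 6.55 and 6.86 in healthy mice, and the same 4 AspClo mice lay below all of them. The means were 5.80 ± 0.44 in AspClo mice and 6.62 ± 0.25 in healthy mice, a difference of -0.83 with a standard error of 0.183, or 1.77-fold lower (limma, adjusted p = 0.0113). Hlth_1798 lay below the other 4 healthy mice and Hlth_1807 above them, and without these 2 the difference was -0.87 (limma, adjusted p = 0.0154). The call was kept in all 30 fits that left out 1 mouse and was lost when only the 2 groups compared were in the fit (limma, adjusted p = 0.118).

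Fibronectin differed by 0.18 between AspClo and healthy mice (limma, adjusted p = 0.0934), with 5 of 6 AspClo mice above all healthy ones. The difference was 0.61 for Col14a1 (adjusted p = 0.236), -0.31 for Col1a1 (adjusted p = 0.188) and -0.70 for Timp3 (limma, adjusted p = 0.22). It was 0.12 for Col18a1 (adjusted p = 0.467), 0.52 for Col3a1 (adjusted p = 0.8) and 0.45 for Col4a1 (limma, adjusted p = 0.721). For Col1a2 it was -0.061 (adjusted p = 0.75), for Timp1 -0.20 (adjusted p = 0.654) and for Mmp2 -0.36 (limma, adjusted p = 0.656). Without Hlth_1798 and Hlth_1807, 11 members passed, Col5a3 lower and 10 higher, while 4.84% of all genes passed and 2.56% were higher. Here too the higher members follow in part from leaving out the healthy mice with the highest matrix levels. Col3a1 was then higher by 2.11, Col4a1 by 1.58 and both Lum and Vim by 1.34 (limma).

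The members varied among mice of the same group. Averaged over the 44 genes, the deviation from each gene's mean was 1.13 in Hlth_1807 and 0.23 in Hlth_1798, against -0.62, -0.55 and -0.43 in Hlth_1804, Hlth_1965 and Hlth_1968. In AspClo mice it lay between -0.26 and 0.059, in sulindac mice between -0.24 and 0.47, in vehicle mice with HCC between -0.075 and 0.29 and in vehicle mice without HCC between -0.36 and 0.26. Its SD was 0.12 in AspClo mice and 0.24 in sulindac mice, against 0.15 and 0.25 in vehicle mice with and without HCC and 0.74 in healthy mice. Among sulindac mice the deviation was highest in Sulin_17 and Sulin_15, at 0.47 and 0.38, and lowest in Sulin_16, at -0.24. Over the 30 mice Col6a3 and Col3a1 had the widest ranges, 5.59 and 5.57, followed by Lum (4.25) and Col6a1 (4.01).

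**Figure D5:**
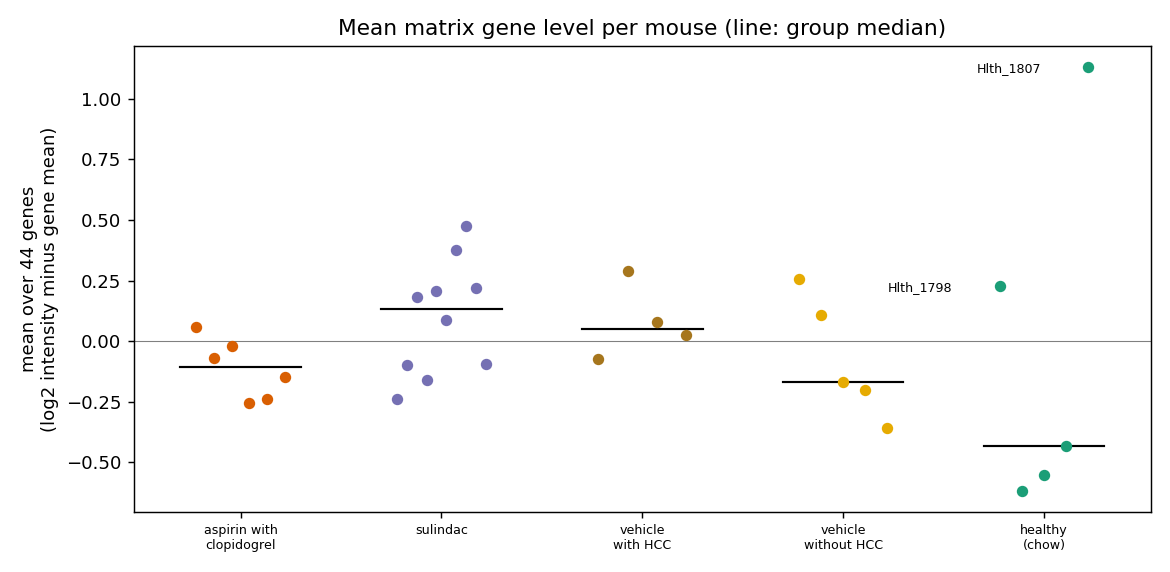
Mean over the 44 matrix genes of each mouse's log2 intensity minus the gene's mean over all mice, by group, with a line at the group median. Hlth_1807 lies at 1.13, above all other mice, and Hlth_1804, Hlth_1965 and Hlth_1968 are the 3 lowest.

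Some members departed from this common order. Type VI collagen has 3 chains that assemble together. Among the healthy mice Col6a1 and Col6a2 were far higher in Hlth_1807, at 8.55 and 8.78. The other 4 healthy mice had 4.54 to 5.31 and 5.00 to 5.82. Of these, Hlth_1798 was the highest, at 5.31 and 5.82, against up to 4.99 and 5.09 in the other 3. Col6a3 was high in both Hlth_1807 (10.42) and Hlth_1798 (8.04). Loxl1, a lysyl oxidase that acts on elastin, had 8.03 in Hlth_1807 and no more than 5.39 in any other mouse. The collagenase Mmp13 was instead highest in Hlth_1798, at 5.50, against 4.19 to 4.49 in the other 4. Nid1 was higher in Hlth_1798 (10.11) than in Hlth_1807 (9.40). Matrix Gla protein (Mgp), an inhibitor of calcification, reached 7.87 in Hlth_1807 and 7.74 in Sulin_17, with AspClo mice at 4.71 to 6.62. Periostin (Postn), an adhesion protein of fibrotic matrix, did not single out a healthy mouse, at 7.26, 6.53, 6.40, 7.06 and 7.49, and connective tissue growth factor (Ctgf) had 5.59, 4.89, 4.63, 6.11 and 7.13.

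Matrix genes outside the 44 were counted from 5 lists. Of 28 other collagens 26 were measured, of 26 collagen-processing genes 23, of 24 other proteases and inhibitors 21, of 42 other glycoproteins and proteoglycans 34, and of 15 TGF-beta pathway genes 14. No gene of these lists passed with limma between vehicle and healthy mice, between vehicle mice with and without HCC, or between sulindac and vehicle mice. The smallest adjusted p in these 3 comparisons were those of Reck (0.416), Smad7 (0.106) and Skil (0.0681). Between AspClo and vehicle mice 1 of the 118 measured genes of the 5 lists passed (0.847%), below the 1.96% of all genes. The gene was Tgfbr2, the type II receptor of TGF-beta, with 8.31, 8.18, 8.30, 7.61, 7.98 and 7.94 in AspClo mice 61, 64, 58, 60, 62 and 63, against 8.22 to 9.72 in vehicle mice. Its difference was -0.90 (limma, adjusted p = 0.0309).

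Against healthy mice 3 of the 118 genes passed in each drug arm (2.54%), near the 2.98% of all genes in sulindac mice and the 2.77% in AspClo mice. The fibrillar collagen Col27a1 was lower, with a difference of -1.99 in AspClo mice (limma, adjusted p = 0.0126) and -1.56 in sulindac mice (adjusted p = 0.0330). Its healthy values were 5.72, 9.06, 8.78, 9.06 and 7.76, with Hlth_1798 the lowest. Skil, a repressor of TGF-beta signalling, was lower, with a difference of -0.65 in AspClo mice (adjusted p = 0.0338) and -0.68 in sulindac mice (limma, adjusted p = 0.0146). The collagen prolyl hydroxylase P4ha2 was lower in sulindac mice (-0.47, adjusted p = 0.0227) and the lysyl hydroxylase Plod1 in AspClo mice (-0.40, limma adjusted p = 0.0402). Without Hlth_1798 and Hlth_1807, Skil no longer passed, with a difference of -0.41 in AspClo mice (adjusted p = 0.234) and -0.44 in sulindac mice (limma, adjusted p = 0.132). Col27a1 passed without them, with -2.88 in AspClo mice (adjusted p = 6.06e-05) and -2.45 in sulindac mice (limma, adjusted p = 0.00011).

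The summed stellate cell and myofibroblast markers overlapped between all groups. The 14 markers summed to 3072 to 4022 in AspClo mice, 2671 to 3592 in sulindac mice, 3145 to 3434 in vehicle mice with HCC, 3064 to 4287 in those without and 2441 to 4362 in healthy mice. The myofibroblast marker Acta2 averaged 6.07 ± 1.22, 5.62 ± 0.55, 5.79 ± 0.51, 5.42 ± 0.59 and 5.24 ± 0.37 in the same groups (SD, n = 6, 10, 4, 5 and 5), and Des and Pdgfrb lay near the lower end of the scale. The brighter stellate cell marker Lrat averaged 8.52 ± 0.33, 7.76 ± 0.78, 8.38 ± 0.54, 8.25 ± 0.23 and 7.89 ± 0.46 in these groups. Of the 14 markers only Lhx2, a transcription factor of stellate cells, passed a test. It averaged 4.61 ± 0.13 in sulindac mice and 4.35 ± 0.16 in healthy mice, a difference of 0.25 (limma, adjusted p = 0.0361). Both Lhx2 means lay below the median gene, and Lrat was not higher in sulindac than in healthy mice. Some endothelial markers also moved in the comparisons that called Col14a1 and Col5a3 against healthy mice. Of the 11 markers only Oit3 passed in AspClo mice, while 2.77% of all genes did. In sulindac mice only Oit3 and Pecam1 passed, while 2.98% of all genes did. The 11 markers summed to 3333 to 4793 in AspClo mice and 3574 to 4254 in sulindac mice, against 2311 to 3345 in healthy mice, so no sulindac mouse overlapped the healthy ones. In vehicle mice they summed to 2291 to 3672 with HCC and 2916 to 4195 without. Oit3, a marker of sinusoidal endothelium, averaged 8.37 ± 0.17 in AspClo mice and 8.31 ± 0.17 in sulindac mice, against 7.69 ± 0.35 in healthy mice. Its difference was 0.68 in AspClo mice (limma, adjusted p = 0.0160) and 0.62 in sulindac mice (limma, adjusted p = 0.0164). Pecam1, a junction protein of endothelial cells, differed by 0.56 between sulindac and healthy mice (limma, adjusted p = 0.0318). Without Hlth_1798 and Hlth_1807 neither gene passed, with Oit3 at 0.53 in AspClo mice (adjusted p = 0.0732) and 0.46 in sulindac mice (adjusted p = 0.0759) and Pecam1 at 0.47 (limma, adjusted p = 0.075). Their part in the collagen differences was not tested.

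The 12 portal fibroblast and smooth muscle markers summed to 271 to 375 in AspClo mice, 284 to 425 in sulindac mice, 299 to 428 in vehicle mice with HCC and 264 to 347 in those without.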

How the data were processed

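Liver RNA of 30 mice was hybridised to Affymetrix HT MG-430 PM arrays. Per the submitters' processing notes and the design text of the series, the authors made the deposited values, 1 intensity per probe set on a linear scale, with RMA and quantile normalization in ExpressionFileCreator (RMA version: not given in the sources used here). Array medians lay between 24.1 and 24.6 and minima between 13.8 and 14.8, and precision is limited by the number of arrays. The design text counts 4 vehicle mice and the labels give 9; the labels were followed.

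Here log2 was taken, and of 45141 probe sets (104 controls) the 28898 with 1 gene symbol gave 17097 genes, each by its brightest probe set; 551 probe sets had several symbols. Symbols were updated through RefSeq (GRCm38.p6, 28689 matched). A model with 5 group means on all 30 arrays was fitted with limma 3.58.1 in R 4.3.3 (25 residual degrees of freedom), with the vehicle mean over 9 mice, and p-values were adjusted by Benjamini-Hochberg over all genes. The script was tested on simulated data. Members, lists and the naming rule were chosen with earlier results of these data known. Tests are given for members past the test, the 3 with the smallest p in each direction and 7 fixed genes (Col1a1, Col1a2, Col3a1, Timp1, Mmp2, Fn1, Col4a1). In other lists they are given for genes past the test, and for the gene of smallest p in 3 comparisons with none. Further members were chosen after their values were seen.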

Additional observations from a re-analysis of the deposited data

Results flagged for a closer look

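In 22 of 220 tests of a member in a group, and in none of 5 tests of the mean over the 44 members, the highest or lowest mouse lay further from its nearest neighbour, relative to the group's whole range, than Dixon's 95% critical value. Chance flags about 1 in 20 such groups, and the members move together, so the tests are not independent. Hlth_1807 accounted for 9 of the 22, each as the highest healthy mouse. These were Col6a1 at 8.55 (nearest mouse 5.31), Col6a2 at 8.78 (5.82), Col8a1 at 4.80 (4.52), Loxl1 at 8.03 (4.69), Timp3 at 9.87 (8.11), Thbs2 at 5.02 (4.62), Mgp at 7.87 (5.11), Lamc1 at 5.62 (5.20) and Efemp1 at 9.18 (6.96), all as log2 intensity. Mmp13 was highest in Hlth_1798, at 5.50 (nearest 4.49).

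Sulin_17 was the highest sulindac mouse for Col5a1 at 5.73 (nearest 5.27), Col6a2 at 7.12 (6.12) and Mgp at 7.74 (5.46). Lamb1 was highest in Sulin_15 at 6.66 (6.32) and Mmp13 in Sulin_21 at 5.32 (4.77). Among AspClo mice, Col5a1 was highest in AspClo_61 at 5.51 (5.02) and Fbln1 in AspClo_63 at 4.78 (4.65). Among vehicle mice with HCC, Mmp13 was highest in Veh_high_798 at 4.74 (4.67), Thbs2 was highest in Veh_high_1770 at 4.90 (4.62), and Col16a1 was lowest in Veh_high_2088 at 4.72 (4.77). Among those without HCC, Lamb1 was highest in Veh_low_1810 at 6.23 (5.93) and Lox in Veh_low_1825 at 5.02 (4.81).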

How the results depend on the processing

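Counts of called matrix members changed mainly with the healthy mice in the fit. Leaving out Hlth_1798 and Hlth_1807, chosen after seeing the data, gave 12 members for vehicle, 14 for vehicle with HCC, 1 for vehicle without HCC, 16 for sulindac and 11 for aspirin with clopidogrel, each against healthy, with the shares of all genes given above. Both had the highest matrix levels of the healthy group, so these counts follow in part from leaving them out. Leaving out Veh_low_794 and Veh_low_1819 as well gave 15, 14, 10, 17 and 12, against 5.61%, 5.01%, 2.95%, 7.76% and 5.43% of all genes. These 2 mice had the lowest mean matrix deviation of the vehicle mice without HCC (-0.20 and -0.36), so the increase of the vehicle counts follows in part from leaving them out. Array weights gave 4 members for vehicle, 4 for vehicle with HCC, 14 for sulindac and 5 for aspirin with clopidogrel against healthy, and 1 for aspirin with clopidogrel against sulindac, against 2.19%, 3.91%, 9.44%, 7.14% and 2.38% of all genes. When the fit held only the compared groups, sulindac and aspirin with clopidogrel each had 0 members called against healthy (limma), against 3.35% and 0.433% of all genes, and the mean of all probe sets gave 2 for sulindac, against 2.78%. Against vehicle mice with HCC only, aspirin with clopidogrel had 0, against 0.918%. When each of the 30 mice was left out in turn, the counts were 0 to 9 for sulindac against healthy, 1 to 2 for aspirin with clopidogrel against healthy, 0 to 1 against sulindac, 1 to 1 against vehicle, and 0 to 0 in the other 5 comparisons. The 9 came without Hlth_1807 (3.36% of all genes), and the 2 without AspClo_62 (4.26%). No difference that was called changed sign. Background subtraction, centring, an intensity trend and a filter on dim genes moved no other count past 1.5 times. Causes of the other changes were not tested. Low signal over background limits the 16 members below the median gene, among them Col1a1, Col1a2, Timp1, Mmp2 and the lysyl oxidases. No paired analysis was possible because the groups share no replicate numbers.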
